A study of Rattus norvegicus with 12 samples.

Results

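The 7 genes described here encode the enzymes and the transporter that bring the amino acid arginine into a cell, make it, and share it between its main fates. They are Arg1 and Arg2 (arginases), Nos2 (inducible nitric oxide synthase), Slc7a2 (a cationic amino acid transporter), Ass1 and Asl (the enzymes that rebuild arginine from citrulline) and Odc1 (ornithine decarboxylase). They were taken by name from 17379 features in the deposited RNA sequencing data. All 7 were found and all 7 passed the filter on low counts in every comparison. The libraries, in 4 groups of 3, came from male SAS Fischer rats weighing 200 to 225 g. In 3 groups the tissue was the hematoma filling a gap cut in the femur: 0.5 mm wide for the group called normal, which heals, 1.5 mm for delayed, which heals late, and 5.0 mm for nonunion. The other group, preOP, was untreated femur: healthy bone taken out while 5.0 mm defects were being made. The labels state neither the age of the hematoma at collection nor whether each library is a separate animal. The p-values therefore weigh differences against the spread between libraries, which may not be the spread between animals. A comparison with preOP sets a different tissue, bone, beside the hematoma.

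Arginine has competing uses in wounds. Arginase splits it into urea and ornithine, and ornithine feeds the polyamines that dividing cells need and the proline that collagen needs. Nitric oxide synthase instead oxidises it to nitric oxide and citrulline, and in mouse macrophages the arginase and nitric oxide routes are textbook markers of opposed activation states.

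Library totals ran from 16808993 to 24325162 estimated reads. In nonunion 2, ribosomal RNA took 72.24% of the reads, compared with 0.16% to 1.75% in the others, so 3 reads there equal 0.462 CPM (TMM-scaled counts per 1e6 reads) against 0.115 to 0.185 CPM in the others. Library delayed 2 carried skeletal muscle markers at a summed 47576 CPM, against 157 to 5342 CPM in the other hematomas. Nonunion 2 also carried adipocyte markers at a summed 11067 CPM, against 175 to 1661 CPM in the other hematomas. Its endothelial markers summed to 1429 CPM, against 88.8 to 702 CPM. The part of fat in the values of nonunion 2 was not tested. Effective lengths were shorter than transcript lengths by a median of 157.2 to 191.6 bases in normal and 194.3 to 254.6 bases in the rest. These ranges nearly met, at normal 1 and nonunion 2. Because all normal libraries lay on the lower side, this gap and group cannot be told apart in comparisons with normal. Erythroid markers summed to 112150 to 190153 CPM in preOP and 889 to 19485 CPM in hematomas, and fibroblast markers to 2785 to 4349 and 11016 to 47076 CPM.

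The hematomas were marked by Arg1, the cytosolic arginase best known from the liver urea cycle and from wound macrophages. Arg1 stood at 144, 249 and 220 CPM in normal libraries 1 to 3, at 681, 71.1 and 228 CPM in delayed, and at 220, 8.32 and 49.1 CPM in nonunion. In preOP femur it stood at 0.987, 0.897 and 0.678 CPM, which is 20, 19 and 11 reads. All 9 hematomas lay above all 3 femur libraries, while the hematoma groups overlapped each other. Against preOP, the log2 difference of Arg1 in normal was 7.89 (SE 1.28, edgeR adjusted p = 0.00093). It rose by 8.56 in delayed (SE 1.32, edgeR adjusted p = 0.001) and by 6.75 in nonunion (SE 1.23, edgeR adjusted p = 0.0027). In the mean of the 3 hematoma groups the difference from preOP was 7.73 (SE 1.24, edgeR adjusted p = 0.00064). These comparisons share the 3 preOP libraries. The 4 calls held in all of the 65 alternative values computed for them, with log2 differences from 5.19 to 9.27 and adjusted p up to 0.024.

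In bulk tissue, fewer cells of a type and less RNA per cell cannot be told apart. Macrophage markers were higher in sum in hematomas too, though not each of them. The 12 listed genes summed to 1256 to 2912 CPM there and to 577 to 975 CPM in preOP, with Marco at 0 in 10 libraries. Of 11 tested, 7 rose in the mean hematoma and 4 were not called. Cd163 averaged 51.1, 75 and 170 CPM in normal, delayed and nonunion, against 118 in preOP. In the same order C1qa averaged 106, 107 and 179 CPM, against 173. The part of these cells in the Arg1 difference was not tested. Within the hematomas, nonunion 2 had the lowest Arg1 and a macrophage sum of 2222 CPM, while delayed 1 had the highest Arg1 and a sum of 2912 CPM. These sums hold markers that went opposite ways. Cd163 stood at 354 CPM in nonunion 2 and 85.7 in delayed 1, and C1qa at 338 and 115. Msr1 stood at 51.5 and 300 CPM, and Fcgr1a at 37.1 and 342. The liver enzymes Cps1 and Otc, which feed the urea cycle ahead of Ass1, were at or near 0. Cps1, carbamoyl phosphate synthetase, had 0 reads in all 9 hematomas, which allows up to 0.462 CPM in nonunion 2 and up to 0.184 CPM in the others. Otc, ornithine transcarbamylase, stood at 0.115 to 0.451 CPM in hematomas.

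Arg2, the mitochondrial arginase, was low and even. It stood at 1.3, 1.35 and 1.49 CPM in normal, at 1.38, 2.32 and 1.01 in delayed, at 1.34, 1.23 and 1.12 in nonunion and at 1.78, 1.27 and 1.6 in preOP. The 4 groups overlapped, and the mean hematoma differed from preOP by -0.16 in log2 units (SE 0.33, edgeR adjusted p = 0.73). From 8 reads in nonunion 2 to 45 reads in delayed 2, its depth was thin. Its highest library, delayed 2, was the muscle-rich library.

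Nos2, which makes nitric oxide in activated macrophages and neutrophils, varied more among hematomas than any other of the 7 genes. It stood at 24, 33.7 and 19.3 CPM in normal, at 273, 10.2 and 76.7 in delayed, at 123, 1.7 and 10.2 in nonunion and at 14.5, 14.2 and 11 in preOP. Normal libraries lay above the femur range, whereas delayed and nonunion libraries fell on both sides of it. Nos2 differed from preOP by 0.96 in normal (SE 1.22, edgeR adjusted p = 0.55), by 3.18 in delayed (SE 1.31, edgeR adjusted p = 0.094) and by 1.77 in nonunion (SE 1.24, edgeR adjusted p = 0.32). The edgeR fits used for these values called Nos2 in none. With only the normal and preOP libraries in the edgeR fit, Nos2 was called in normal, at 1.03 (SE 0.25, adjusted p = 0.01). Over 15 alternatives the adjusted p in normal ranged from 0.01 to 0.72. DESeq2 called it in delayed, at 3.34 (adjusted p = 0.011). Without delayed 2, the muscle-rich library, the edgeR difference was 3.95 (adjusted p = 0.031). Adjusted p ranged from 0.0037 to 0.28 over 15 alternatives. The mean hematoma differed by 1.97 (SE 1.12, edgeR adjusted p = 0.19), and by 2.50 without delayed 2 and nonunion 2 (edgeR adjusted p = 0.011, range 0.011 to 0.43 over 20 alternatives). Without nonunion 1 the nonunion difference turned to -0.97, and adjusted p over its alternatives ran from 0.03 to 0.82.

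**Figure D1:**
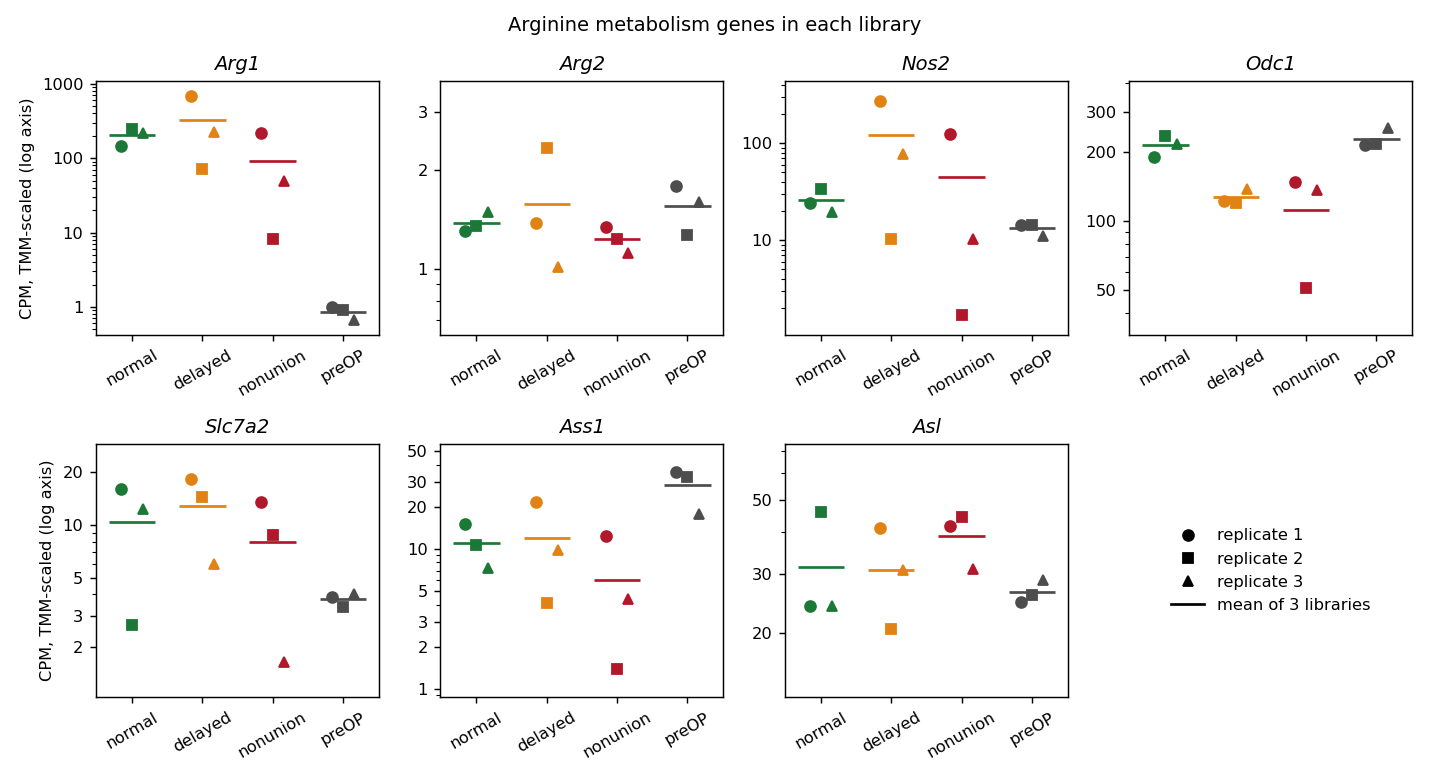
Level of each of the 7 genes in every library, in TMM-scaled CPM on log axes, by group; symbols mark replicates 1 to 3 and lines the mean of 3 libraries. Arg1 separates the hematomas (8.32 to 681 CPM) from preOP femur (0.678 to 0.987 CPM), while Arg2 lies between 1.01 and 2.32 CPM throughout.

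Because levels of different genes can be compared only per length, Arg1 and Nos2 were set beside each other in TPM, rescaled to 1e6 over coding transcripts so that nonunion 2 is comparable. Arg1 averaged 185 ± 47.7 TPM in normal, 373 ± 345 in delayed, 115 ± 140 in nonunion and 0.61 ± 0.178 in preOP (SD, n = 3 each). For Nos2 the averages were 8.43 ± 0.616, 48.9 ± 53.6, 20 ± 30.2 and 3.38 ± 0.854 TPM (SD, n = 3 each). Arg1 was thus the higher of the pair in every hematoma and Nos2 in every femur library.

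The log2 ratio of Arg1 to Nos2 within a library, from deposited TPM with 0.1 added to both, was 4.02, 4.30 and 4.92 in normal and 2.80, 4.26 and 3.07 in delayed. It was 2.32, 2.94 and 3.71 in nonunion and -2.25, -2.33 and -2.29 in preOP. Differences between the 4 groups held 96.9% of its sum of squares (exact permutation test over 369600 arrangements, p = 0.0025, adjusted over 2 ratios p = 0.0049). Over the 3 hematoma groups alone, a test chosen after seeing the data, the share was 55.5% (exact permutation test, p = 0.14, adjusted p = 0.27). Group means fell in the order normal (4.41 ± 0.46), delayed (3.37 ± 0.78) and nonunion (2.99 ± 0.70; SD, n = 3 each), and the libraries of neighbouring groups overlapped. In nonunion 2 the added 0.1 weighs on deposited TPM lowered by ribosomal RNA, and from rescaled TPM its log2 ratio was 3.61. The nonunion mean was then 3.22 ± 0.78 (SD, n = 3), the share over 4 groups 96.7% (exact permutation test, p = 0.0028, adjusted p = 0.0056) and over the hematoma groups 47.2% (exact permutation test, p = 0.15, adjusted p = 0.31). The rescaled values were added after seeing the data. The ratio of Arg1 to Arg2 averaged 6.98 ± 0.36, 7.06 ± 2.04, 4.91 ± 2.48 and -0.84 ± 0.30 on the log2 scale in normal, delayed, nonunion and preOP (SD, n = 3 each). Between-group differences held 85.5% of its sum of squares (exact permutation test, p = 0.0074, adjusted p = 0.0074), and 30% over the hematoma groups (exact permutation test, p = 0.41, adjusted p = 0.41).

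**Figure D2:**
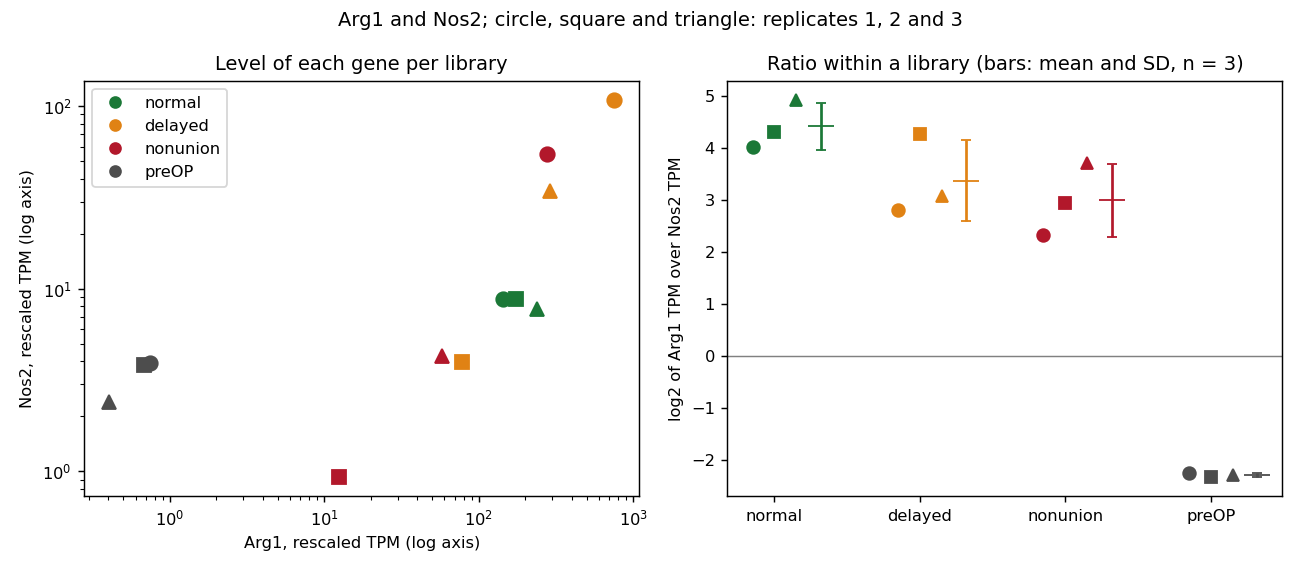
Left, rescaled TPM of Nos2 against Arg1 in each library on log axes; right, the log2 ratio of Arg1 to Nos2 TPM by group with mean and SD (n = 3). The 9 hematomas lie at ratios of 2.32 to 4.92 and the 3 femur libraries at -2.33 to -2.25.

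Slc7a2 encodes CAT2, a carrier that brings arginine, lysine and ornithine across the plasma membrane. It stood at 16.1, 2.69 and 12.3 CPM in normal, at 18.2, 14.4 and 5.97 in delayed, at 13.6, 8.79 and 1.65 in nonunion and at 3.85, 3.4 and 4.01 in preOP. Of the 9 hematomas 7 lay above the femur range, and normal 2 and nonunion 3 lay below it. The mean hematoma difference was 1.45 in log2 units (SE 0.66, edgeR adjusted p = 0.11), short of a call. DESeq2, as the other tool, called it in the mean hematoma and in delayed. With only the delayed and preOP libraries in the edgeR fit, Slc7a2 was called in delayed, at 1.98 (adjusted p = 0.015). Over 15 alternatives the adjusted p of Slc7a2 in delayed ranged from 0.015 to 0.21. Its transcript NM_022619 took 43.5% of its reads in delayed 2 and 37.7% in nonunion 2, against 0.0% to 19.2% in the other hematomas and 10.1% to 26.8% in preOP. Only 40 to 475 estimated reads per library were split between both transcripts, and the part of muscle in delayed 2 was not tested.

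Ass1, argininosuccinate synthase, joins citrulline to aspartate and limits how fast arginine is remade. It was called lower in hematomas. Ass1 stood at 15, 10.6 and 7.35 CPM in normal, at 21.8, 4.13 and 9.8 in delayed, at 12.3, 1.39 and 4.38 in nonunion and at 35.3, 32.6 and 17.8 in preOP. In CPM, delayed 1 lay inside the femur range and the other 8 hematomas below it. In rescaled TPM, normal 1 (15.1), delayed 3 (12.6) and nonunion 1 (15.5) also lay inside the femur range (10.8 to 26.8). The mean hematoma fell by 1.62 against preOP (SE 0.54, edgeR adjusted p = 0.032) and nonunion by 2.21 (SE 0.74, edgeR adjusted p = 0.044). In normal the difference was -1.38 (SE 0.72, edgeR adjusted p = 0.14) and in delayed -1.26 (SE 0.71, edgeR adjusted p = 0.22). With only the normal and preOP libraries in the edgeR fit, normal was called, at -1.29 (adjusted p = 0.017). It was also called without delayed 2 and nonunion 2, at -1.26 (edgeR adjusted p = 0.04). Over 15 alternatives the adjusted p in normal ranged from 0.017 to 0.36. The mean hematoma call was lost without normal 2, normal 3, delayed 3, nonunion 3, preOP 1 or preOP 2, with adjusted p from 0.0075 to 0.17 over 20 alternatives. The nonunion call was lost in 8 of 15 alternatives, with adjusted p from 0.012 to 0.16. The mature neutrophil markers, whose sum is mostly S100a8 and S100a9, stood at a summed 7550 to 9691 CPM in preOP and 60.8 to 1699 CPM in 8 hematomas, with normal 1 at 9078 CPM. Of the 8 markers, 5 were called lower in the mean hematoma and 3 were not, among them Il1r2, which reached 181 CPM in delayed 1 against 23.9 to 45.1 CPM in preOP. Their part in the Ass1 difference was not tested.

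Asl, argininosuccinate lyase, carries out the next step and releases arginine. It stood at 24.1, 46 and 24.1 CPM in normal, at 41.1, 20.5 and 30.8 in delayed, at 41.7, 44.4 and 31.1 in nonunion and at 24.8, 26 and 28.7 in preOP. All 3 nonunion libraries lay above the femur range, but the mean hematoma differed from preOP by only 0.34 (SE 0.27, edgeR adjusted p = 0.34), and nonunion by 0.56 (SE 0.32, edgeR adjusted p = 0.22). In rescaled TPM every hematoma lay above the femur range, at 15.5 to 46.5 TPM against 12 to 13.7 TPM. The fits used for the reported values did not call Asl in any comparison. With only the nonunion and preOP libraries in the edgeR fit, nonunion was called, at 0.67 (adjusted p = 0.045, range 0.045 to 0.34 over 15 alternatives).

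Odc1, ornithine decarboxylase, starts polyamine synthesis from the ornithine that arginase releases. It was abundant in every library except nonunion 2. Odc1 stood at 190, 235 and 217 CPM in normal, at 123, 120 and 138 in delayed, at 148, 51.3 and 137 in nonunion and at 215, 217 and 255 in preOP. In CPM, delayed and nonunion libraries all lay below all normal and preOP libraries, which overlapped each other. This separation depends on the scale. In rescaled TPM, nonunion 1 (110) and delayed 3 (103) lay above all preOP libraries (91 to 96.9) and above normal 2 (100). Against preOP, nonunion fell by 1.03 (SE 0.33, edgeR adjusted p = 0.04), delayed differed by -0.85 (SE 0.33, edgeR adjusted p = 0.08) and normal by -0.10 (SE 0.33, edgeR adjusted p = 0.83). With only the delayed and preOP libraries in the edgeR fit, delayed was called, at -0.63 (adjusted p = 0.036). It was also called without delayed 2 and nonunion 2, at -0.59 (edgeR adjusted p = 0.029). Over 15 alternatives the adjusted p in delayed ranged from 0.029 to 0.3. The nonunion call was lost in 10 of 15 alternatives, among them leaving out any 1 of the 3 nonunion or 3 preOP libraries, with adjusted p from 0.026 to 0.14. Without nonunion 2 the difference was -0.52 (edgeR adjusted p = 0.074). The mean hematoma differed by -0.66 (SE 0.26, edgeR adjusted p = 0.065), and by -0.36 without delayed 2 and nonunion 2 (edgeR adjusted p = 0.048, range 0.048 to 0.24 over 20 alternatives).

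Both RefSeq transcripts of Odc1 were read, and NM_001302083 took 68.2%, 67.5% and 53.8% of its reads in normal libraries. In delayed that share was 38.6% to 48.8%, in nonunion 40.1% to 44.8%, and in preOP 35.2% to 39.7%, so normal did not overlap the other groups. The transcripts are 2393 and 2423 bases long, and the reads were divided between them by estimation. The normal libraries also had the smallest gaps between transcript and effective length. The part of that gap in the transcript share was not tested.

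**Figure D3:**
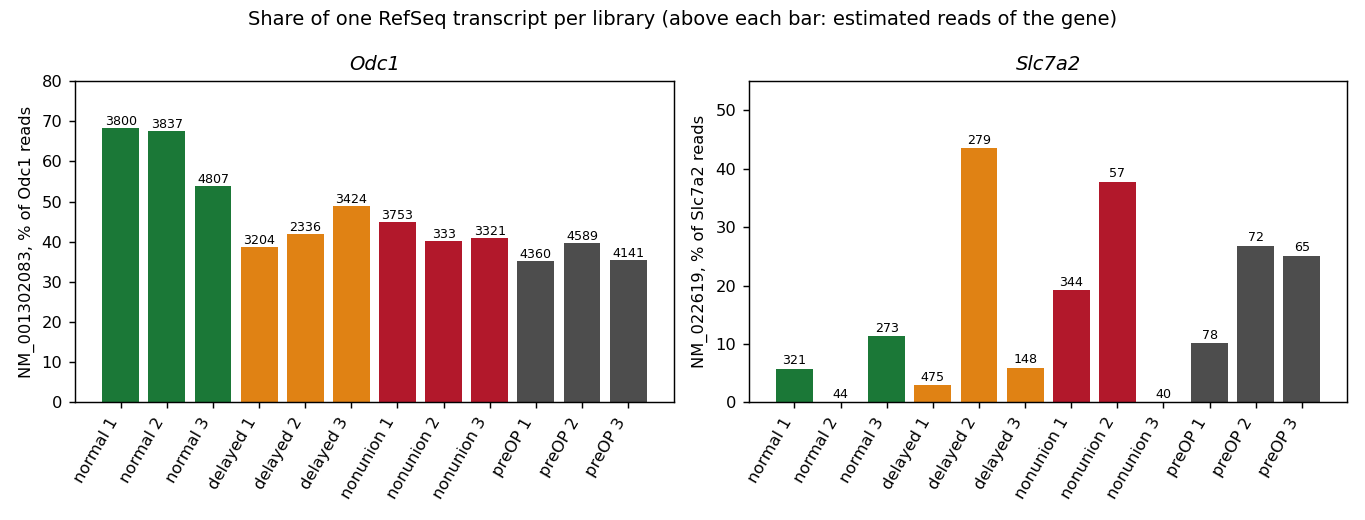
Percent of estimated reads assigned to Odc1 transcript NM_001302083 and Slc7a2 transcript NM_022619 in each library, with the gene's estimated reads above each bar. The 3 normal libraries are highest for Odc1 (53.8% to 68.2%), and delayed 2 is highest for Slc7a2 (43.5%).

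Promoter sequence was available for Odc1, Ass1 and Asl, the synthesis and polyamine members, of which Ass1 and Odc1 were called lower in at least 1 of the reported comparisons. Each line gives 250 bases before the start that the RefSeq promoter table uses (build GRCr8, plus strand), 5′ to 3′, at chr6:46058415-46058664 for Odc1, chr3:35149480-35149729 for Ass1 and chr12:32295658-32295907 for Asl. That start lies inside the widest RefSeq span of each gene, so the windows overlap annotated gene sequence. Capitals mark matches, on either strand, to ACGTG, to an NF-kB-like motif (GGG and CC with 5 bases between) and to TATAAA.
Odc1: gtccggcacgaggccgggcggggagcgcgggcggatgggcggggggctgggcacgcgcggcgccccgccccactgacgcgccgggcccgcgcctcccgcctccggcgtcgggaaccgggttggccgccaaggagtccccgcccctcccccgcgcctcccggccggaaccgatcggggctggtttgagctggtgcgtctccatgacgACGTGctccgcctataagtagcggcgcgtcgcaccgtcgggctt
Ass1: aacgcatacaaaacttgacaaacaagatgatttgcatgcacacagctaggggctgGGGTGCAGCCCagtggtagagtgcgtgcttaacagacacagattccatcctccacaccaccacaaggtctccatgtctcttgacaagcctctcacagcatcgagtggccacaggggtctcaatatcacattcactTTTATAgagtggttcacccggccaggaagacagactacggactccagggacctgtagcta
Asl: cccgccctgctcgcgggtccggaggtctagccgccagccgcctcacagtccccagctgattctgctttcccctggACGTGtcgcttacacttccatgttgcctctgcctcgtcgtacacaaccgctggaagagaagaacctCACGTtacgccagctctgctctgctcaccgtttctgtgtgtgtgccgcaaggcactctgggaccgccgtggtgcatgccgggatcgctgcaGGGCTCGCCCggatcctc
ACGTG, which CACGTG also contains, was found for Odc1 and Asl and in 16.6% of 33469 promoters of this length. The NF-kB-like motif was found for Ass1 and Asl and in 42.3% of promoters, and TATAAA for Ass1 and in 12.9%. No match to CACGTG (5.6% of promoters), TGATGNAA (3.4%) or TTCNNNGAA (7.7%) was found in the 3 windows. A match describes these letters and is not a measured binding site.

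Set against preOP, 1 of the 7 genes was called in normal (Arg1), where 42.6% of all genes tested were called (20.5% higher and 22.1% lower). In delayed 1 of 7 was called (Arg1), against 28.2% of all genes (12.6% higher and 15.6% lower), and in nonunion 3 of 7 (Arg1 higher, Ass1 and Odc1 lower), against 28.4% (13.5% and 14.9%). In the mean hematoma 2 of 7 were called (Arg1 higher, Ass1 lower), against 40.6% of all genes, of which 17.6% were higher and 23% lower. The share of the 7 genes called was thus near or below that of all genes, apart from nonunion at 3 of 7. Their median log2 difference was 0.25, 0.22, 0.56 and 0.34 in the 4 comparisons, beside -0.09, -0.03, 0 and -0.02 over all genes.

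The same 7 genes did not pass the test in any comparison among hematomas. In delayed against normal 0 of 7 were called by edgeR, DESeq2 and limma-voom, and 0 had an unadjusted edgeR p under 0.05, where 7.13% of all genes were called (2.68% higher and 4.45% lower). The median over the 7 was 0.15, against 0.02 over all genes. Nos2 differed most, by 2.24 (SE 1.4, edgeR adjusted p = 0.34), followed by Odc1 at -0.76 (SE 0.38, edgeR adjusted p = 0.24) and Arg1 at 0.68 (SE 1.04, edgeR adjusted p = 0.71). Leaving out each of the 6 libraries in turn also gave 0.

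In nonunion against normal 0 of 7 were called by all 3 tools and 1 had an unadjusted edgeR p under 0.05, where 2.37% of all genes were called (0.89% and 1.48%). That gene was Odc1, at -0.99 (SE 0.38, edgeR adjusted p = 0.19). Arg1 differed by -1.19 (SE 1.05, edgeR adjusted p = 0.56), Ass1 by -0.90 (SE 0.79) and Nos2 by 0.76 (SE 1.35), which turned to -2.11 without nonunion 1. The median was -0.47, against -0.03 over all genes.

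In nonunion against delayed 0 of 7 were called by all 3 tools and 0 had an unadjusted edgeR p under 0.05, where 0% of all genes were called. Arg1 differed by -1.88 (SE 1.07, edgeR adjusted p = 0.81) and Nos2 by -1.48 (SE 1.36, edgeR adjusted p = 0.91), with overlapping libraries for both. Standard errors were above 1 on the log2 scale for both genes.

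**Figure D4:**
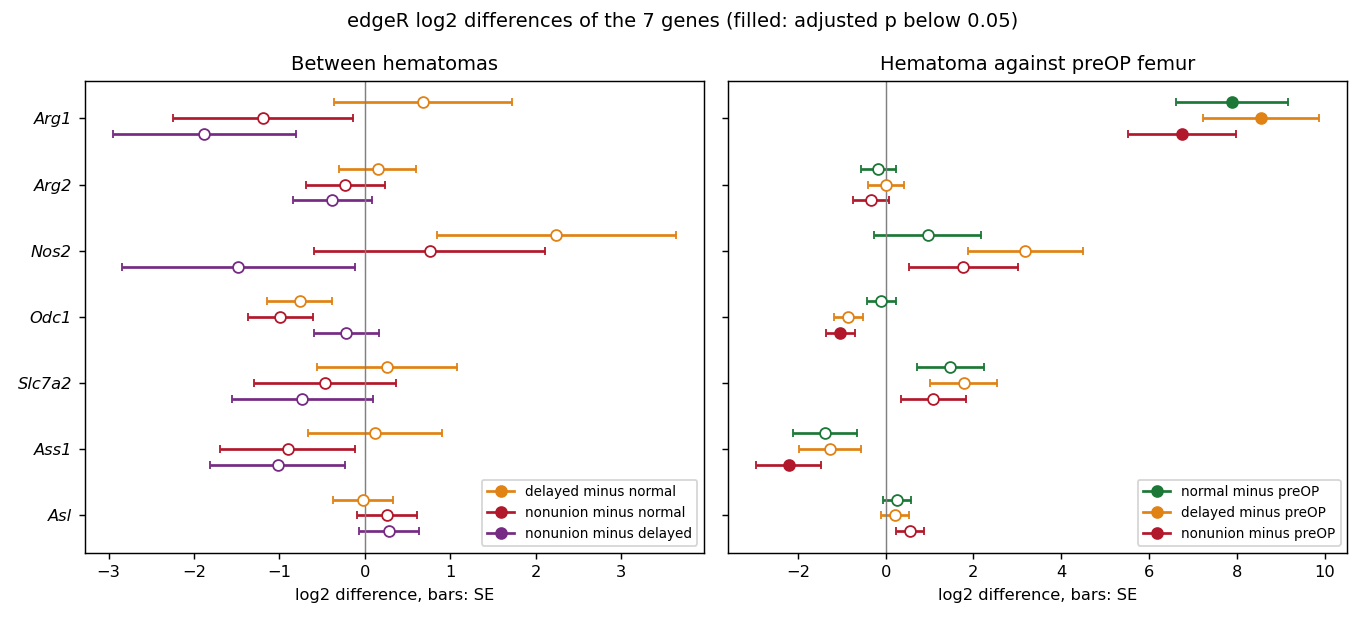
edgeR log2 differences of the 7 genes with SE bars, against preOP femur and among hematomas; filled points have an adjusted p below 0.05. Arg1 is filled in all 3 hematoma groups against preOP (6.75 to 8.56), and no point is filled among hematomas.

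The spread behind these wide errors followed the same libraries for Arg1, Nos2 and Ass1, and only in part or not at all for the other genes. Between the lowest and highest of 9 hematomas Nos2 spanned 161-fold, Arg1 81.9-fold, Ass1 15.7-fold and Slc7a2 11-fold, whereas Odc1 spanned 4.58-fold, Arg2 2.3-fold and Asl 2.24-fold. Within preOP no gene spanned more than 1.98-fold. Delayed 1 was the highest hematoma for Arg1, Nos2, Slc7a2 and Ass1, and nonunion 2 the lowest for Arg1, Nos2, Ass1 and Odc1.

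Of 21 gene pairs tested over the 9 hematomas, 3 passed by Pearson's r of log2 CPM after Benjamini-Hochberg adjustment, those among Arg1, Nos2 and Ass1. Arg1 and Nos2 had r = 0.93 (exact permutation p = 0.00034, adjusted 0.0045) and rho = 0.85 (exact permutation p = 0.0061, adjusted 0.064). Arg1 and Ass1 had r = 0.94 (exact permutation p = 0.00063, adjusted 0.0045) and rho = 0.72 (exact permutation p = 0.037, adjusted 0.26). Nos2 and Ass1 had r = 0.92 (exact permutation p = 0.00064, adjusted 0.0045) and rho = 0.87 (exact permutation p = 0.0045, adjusted 0.064). No pair passed by rank. Without the 2 libraries farthest from the median of the first gene, r was 0.85, 0.80 and 0.73, and with group means removed it was 0.98, 0.93 and 0.97. For Arg1 and Odc1, r was 0.72 (exact permutation p = 0.047, adjusted 0.21) and -0.01 without the 2 farthest libraries, so that relation rests on them. Ribosomal RNA content and muscle, adipocyte and neutrophil markers also differ between these libraries, and their part in the correlations was not tested.

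By share of the summed rescaled TPM of the 7 genes, Arg1 held 40.8% to 74.5% in 7 hematomas, 30.3% in nonunion 3 and 10.6% in nonunion 2. In preOP it held 0.3% to 0.5%, and Odc1 held 66.9% to 76.5%. Odc1 averaged 119 ± 20.7 TPM in normal, 87 ± 13.7 in delayed, 83.7 ± 33.4 in nonunion and 94.6 ± 3.15 in preOP (SD, n = 3 each). In the femur, Odc1 was followed by Ass1 at 20.8 ± 8.78 TPM and Asl at 12.9 ± 0.844 TPM (SD, n = 3 each), and then by Nos2, Slc7a2, Arg2 and Arg1. In each hematoma group the order of mean TPM began with Arg1 and Odc1 and ended with Arg2. In delayed and nonunion the libraries of Arg1 and Odc1 overlapped.

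The genes whose log2 CPM most resembled each member over the 12 libraries were listed among about 10155 genes with a mean of at least 5 CPM, as a description. For Arg1 they were Vcan (r = 0.985), Tgfbi (0.984) and Has2 (0.983), with r of 0.934, 0.931 and 0.921 over the 9 hematomas. For Nos2 they were Trem1 (r = 0.966), Itgb2 (0.949) and Clec4e (0.948), and for Ass1 they were Mefv (0.975), Napsa (0.951) and Nlrp12 (0.944). For Odc1 they were Ttk (r = 0.991), Orc6 (0.976) and Ndc80 (0.974), which act in mitosis and DNA replication. Asl was most like Spns1 (r = 0.894), Slc12a9 (0.893) and Coro7 (0.875). The gene most like Arg2 was Mphosph8 (r = 0.907), and the gene most like Slc7a2 was Atp6v0a2 (r = 0.847). All these correlations share libraries and depth, and over 12 libraries they include the gap between hematoma and femur.

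The wider pathway was followed in fixed lists of genes, each compared in the mean hematoma with preOP and counted against the 17.6% of all genes called higher and 23% called lower. Of 6 genes of the urea cycle and arginine supply, 4 were tested, 0 rose and 1 fell. This was Nags, which makes the activator of Cps1, at 0.78 ± 0.12 CPM in normal, 1.06 ± 0.729 in delayed, 0.822 ± 0.317 in nonunion and 8.06 ± 2.81 in preOP (SD, n = 3 each; -3.18, SE 0.40, edgeR adjusted p = 0.00014). Of 5 cationic amino acid carriers tested, 2 rose and 1 fell. Slc7a6 (1.33, SE 0.22) and Slc7a7 (0.96, SE 0.27), both carriers that exchange cationic for neutral amino acids, rose. Slc7a9, the light chain of the cystine and cationic amino acid carrier, was called lower, at 2.57 ± 0.983 CPM in preOP (SD, n = 3) and at most 0.308 CPM in hematomas (edgeR adjusted p = 0.00013).

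On the nitric oxide side, 3 of 14 genes rose and 5 fell. Gucy1a1 (-3.22, SE 0.89) and Gucy1b1 (-2.53, SE 0.46), the subunits of the nitric oxide receptor guanylate cyclase, fell. So did Spr, which makes the cofactor tetrahydrobiopterin that Nos2 needs, from 114 ± 37.7 CPM in preOP to 24.3 ± 7.9 in normal, 27.6 ± 8.89 in delayed and 17.5 ± 4.6 in nonunion (SD, n = 3 each; -2.32, SE 0.26, edgeR adjusted p = 7.5e-05). Gch1, the first enzyme of that cofactor's synthesis, was named after its values were seen and fell by 2.28 (SE 0.47, edgeR adjusted p = 0.003). Other genes of this list, likewise named after their values were seen, had higher means in hematomas. Gchfr averaged 8.71, 4.98 and 7.76 CPM in normal, delayed and nonunion, against 1.77 CPM in preOP. In the same order Nostrin averaged 6.95, 6.08 and 6.64 CPM, against 3.3 CPM. Nos3 averaged 27.9 CPM in normal and 48.7 in nonunion, but 11.2 in delayed, against 11.5 in preOP.

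Among genes downstream of ornithine, polyamine synthesis had 2 of 10 higher and 2 lower. The spermidine synthase Srm rose by 1.21 (SE 0.35) and Azin2, an antizyme inhibitor, by 1.57 (SE 0.44), while Amd1, which supplies the aminopropyl donor, fell by 1.13 (SE 0.22). In polyamine breakdown and transport 1 of 6 rose and 1 fell: the acetyltransferase Sat1 by 1.29 (SE 0.27), and the spermine oxidase Smox by -1.64 (SE 0.53). In ornithine, proline and glutamate metabolism 3 of 7 rose and 3 fell. Pycr1, the last step of proline synthesis, rose by 2.53 (SE 0.58), from 1.75 ± 0.232 CPM in preOP to 15.9 ± 5.63 in normal, 11 ± 6.37 in delayed and 5.81 ± 4.07 in nonunion (SD, n = 3 each). Prodh, which starts proline breakdown, fell by 3.01 (SE 0.63), and Aldh4a1, which completes it, by 1.8 (SE 0.33). The summed level of the fibroblast markers, which include collagens, was higher in every hematoma than in every femur library, and 5 of the 7 markers were called higher in the mean hematoma. Their part in these differences was not tested.

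In creatine and agmatine metabolism 2 of 5 rose and 0 fell, namely Agmat (1.62, SE 0.51) and the creatine kinase Ckb (1.53, SE 0.51). By group, Ckb differed from preOP by 2.64 in normal (edgeR adjusted p = 0.0054), by 0.41 in delayed (edgeR adjusted p = 0.63) and by 1.54 in nonunion (edgeR adjusted p = 0.069), and delayed 2 at 24.3 CPM lay below the femur range of 32.9 to 75.6 CPM. Of 17 tested cytokines, receptors and factors known to control Arg1 and Nos2, 9 rose and 0 fell. Il6, an acute inflammatory cytokine, was called higher, at 0.154 to 21.3 CPM in hematomas and 0 to 0.0987 CPM in preOP, which is at most 2 reads (edgeR adjusted p = 0.0023). Cebpb, a transcription factor that acts on Arg1 in mouse macrophages, rose by 2.22 (SE 0.49), and the cytokine Il10 was called higher from 0.239 ± 0.0556 CPM in preOP (SD, n = 3; edgeR adjusted p = 0.028). Il4 and Il13, the classical inducers of Arg1, had 0 reads in all 9 hematomas, and Ifng, a classical inducer of Nos2, reached at most 0.0414 CPM. Leaving out any 1 preOP library ended the calls of Slc7a7, Srm, Smox, Agmat, Ckb and Il10, and leaving out preOP 1 or preOP 3 that of Azin2. Smox was also lost without normal 3, delayed 3, nonunion 2 or nonunion 3, and Ckb without normal 2. The Il10 call was also lost with limma-voom. Without delayed 2 and nonunion 2, a choice added after seeing the data for these lists, more genes were called. The counts were then 4 higher and 2 lower for polyamine synthesis, 3 and 2 for its breakdown, and 13 and 0 for the cytokine list. In creatine and agmatine metabolism they were 3 and 0. The share of all genes called in that fit is not given here, so these counts are not a result about the lists.

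Among hematomas, calls in the pathway lists included Dohh and Cebpb. Dohh, which completes the hypusine that spermidine provides to Eif5a, fell in delayed against normal by 1.91 (SE 0.45, edgeR adjusted p = 0.038). This call held in 8 of 16 alternatives and was lost without any 1 of the 6 libraries compared. Cebpb stood at 89.3 ± 40.6 CPM in normal, 11.7 ± 7.13 in delayed, 11 ± 3.16 in nonunion and 4.85 ± 2.4 in preOP (SD, n = 3 each). It fell by 2.93 in delayed against normal (SE 0.55, edgeR adjusted p = 0.021), lost without normal 1, normal 2 or delayed 3. It fell by 3.06 in nonunion against normal (SE 0.56, edgeR adjusted p = 0.03), lost without any 1 of the 6 normal and nonunion libraries. In nonunion against delayed 0 pathway genes were called by edgeR. Without delayed 2 and nonunion 2, delayed against normal had 0 higher and 4 lower in the nitric oxide list, against 0 and 0 before. The cytokine list then had 6 higher and 1 lower, against 0 and 1. The creatine and agmatine list had 1 and 1, against 0 and 0. For this fit too the share of all genes called is not given here, so the rise is not particular to the lists.

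**Figure D5:**
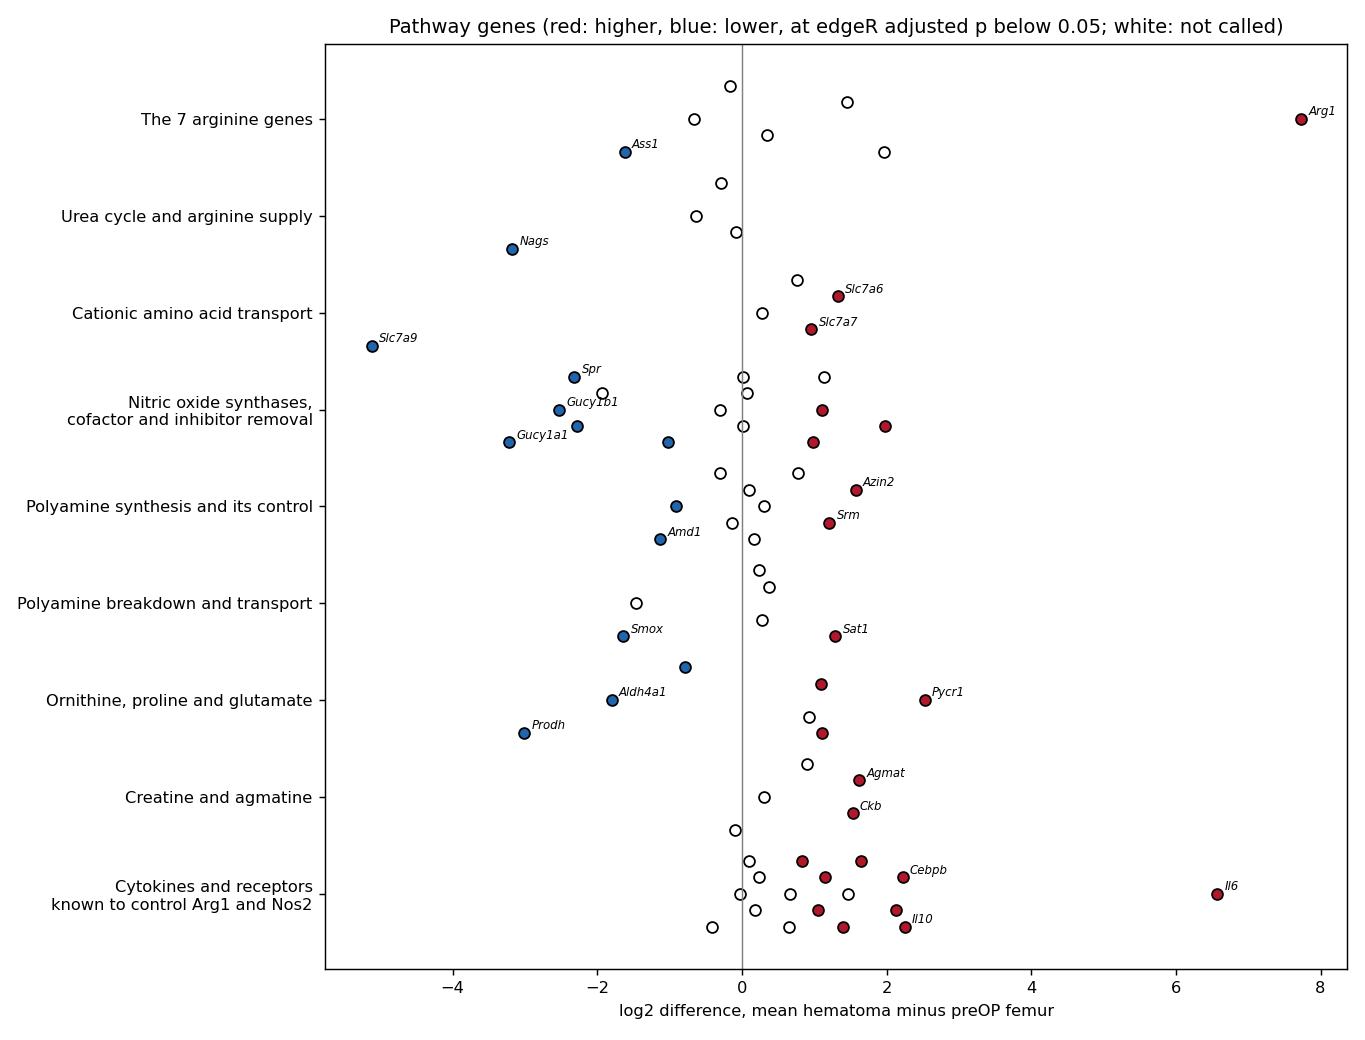
edgeR log2 differences of the listed pathway genes in the mean hematoma against preOP femur, 1 point per gene by list; red and blue are higher and lower at an adjusted p below 0.05, white is not called, and names mark the called members and up to 3 called genes per list with the largest difference. The cytokine list has 9 red and 0 blue points, and the urea cycle list 0 red and 1 blue.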

How the data were processed

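RNA from 12 rat libraries was sequenced. Per the labels, Trizol RNA (1 ug) went into the Illumina TruSeq RNA kit. Per the submitters' processing notes, bcl2fastq 1.8.4, FastQC, Trimmomatic and Salmon were used, with build rn6. Per the file headers, the authors deposited estimated counts (not scaled), TPM and effective lengths in bases per transcript.

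Rounded estimated counts were added up per gene symbol, with names from a RefSeq annotation: 17367 of 18321 transcripts matched and 954 stayed single. edgeR 4.0.16 in R 4.3.3 (TMM, filterByExpr by group, quasi-likelihood F-tests, two-sided) was fitted to 9 hematoma libraries (12474 genes, 6 residual degrees of freedom) or all 12 (12846 genes, 8). A call is a Benjamini-Hochberg adjusted p below 0.05 over all genes tested. The SE is the absolute log2 difference divided by the square root of F. Ratios used deposited TPM and exact permutation tests. Rescaled TPM are the deposited TPM divided by their sum over coding transcripts.

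The rule named all 7 members, listed genes called among hematomas, and up to 3 listed genes per list with the largest called difference from preOP; some were described without their full values. The 3 most similar genes were named by Pearson's r (prior count 2). The members and lists were chosen with earlier results of these data known. Alternatives were DESeq2 1.42.0 and its size factors, limma-voom (limma 3.58.1), no filter, other libraries in the fit, no ribosomal RNA, effective-length offsets, the replicate block and leaving out each library. Over all genes tested, deviations of same-numbered libraries from their group means had r from -0.18 to 0.19, which does not settle whether single genes were paired. The script was tested on simulated data with 200 genes changed 4-fold. It recovered 19% of them in delayed against normal and 64% in normal against preOP. A gene not called among hematomas may therefore still differ. Slc7a1 and Paox were not analysed here. A result for a listed gene that the rule selects is not reported here. Counts of reads per gene cover counting error only.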

Additional observations from a re-analysis of the deposited data

How the results depend on the processing

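Of 113 alternative counts of called members, 94 stayed within 1.5 times the reported one. In comparisons among hematomas 0 members were called in any alternative run, so the 19 counts that moved further were all against preOP. Against preOP, the count in normal (1) became 2 without delayed 2 and nonunion 2, and 3 with only the groups compared. In delayed (1) it became 3 with DESeq2, 3 without those libraries and 3 with only the groups compared. In nonunion (3) it became 1 with DESeq2 size factors and 1 without ribosomal RNA. In the mean hematoma (2) it became 4 without those libraries. Leaving out each library gave counts from 1 to 2 in delayed, likewise 1 to 2 in nonunion and in the mean hematoma. The shares of all genes called in these alternatives are not given here, and the causes were not tested. No label says whether the replicate numbers pair libraries across groups. In both delayed and nonunion, though not in normal, Arg1, Nos2 and Ass1 were highest in replicate 1 and lowest in replicate 2. With the replicate block the counts were 1, 1, 3 and 2 against preOP, while the pathway genes Dohh and Ckb lost their calls. Both ratio tests passed in every alternative run.

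Of 791 alternative member differences, 35 changed sign, all of uncalled values. In delayed against normal, Asl was 0.04 with DESeq2 size factors or DESeq2, 0.27 without delayed 2 and nonunion 2, 0.09 without ribosomal RNA and 0.10 with only the groups compared. Ass1 was -0.09 with limma-voom and -0.24 with the replicate block, Arg1 -0.34 with the block, and Arg2 -0.13 without delayed 2 and nonunion 2. Nos2 in nonunion against normal was -0.39 with limma-voom and -1.34 with the block. Without delayed 2 and nonunion 2, nonunion against delayed was 0.07 for Odc1 and -0.04 for Asl, and normal against preOP 0.03 for Odc1. Arg2 in delayed against preOP was -0.08 with limma-voom, -0.02 with the block and -0.16 without those libraries. Leaving out each library gave, in delayed against normal, -0.14 to 0.72 for Slc7a2, -0.29 to 0.35 for Asl, -0.66 to 0.53 for Ass1, -0.44 to 1.17 for Arg1 and -0.20 to 0.38 for Arg2. In nonunion against normal it gave -2.11 to 1.39 for Nos2 and -1.14 to 0.01 for Slc7a2, and in nonunion against delayed -0.47 to 0.11 for Odc1. Against preOP it gave -0.13 to 0.50 for Asl and -0.19 to 0.04 for Arg2 in normal, -0.14 to 0.35 for Arg2 in delayed, -0.97 to 2.48 for Nos2 in nonunion and -0.18 to 0.05 for Arg2 in the mean hematoma. Depth limits Arg2 and Slc7a2, at 8 and 57 reads in nonunion 2.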
